A study of Mus musculus with 16 samples.

Results

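MicroRNAs (miRNAs) in CD8+ dendritic cells (DC) sorted from mouse spleen were compared with those in common dendritic cell progenitors (CDP) sorted from bone marrow. The comparison rests on 4 of the 16 samples of the study, 2 biological replicates of each population, chosen by their titles. All mice were female C57Bl/6 aged 6 weeks, the cells were isolated without culture within 5 h, and each replicate was RNA from a pool of animals. The CDP were pooled from 15 mice. They came from femur and tibia, were CD135+, CD117 low and CD115+, and were negative for the lymphoid markers CD3, CD4, CD8α, B220 and NK1.1, the myeloid and DC markers CD11b, Gr1 and CD11c, the erythroid marker Ter-119 and the stem cell marker Sca-1. The CD8+ DC were pooled from 8 mice and were CD11c+, CD8+ and CD86+ and lacked CD3, CD4 and B220. CD86, a co-stimulatory molecule, is listed for no other population of the study. The other 12 samples, 2 replicates each of MP (an abbreviation the labels do not spell out), macrophage and dendritic cell progenitors (MDP), Gr1+ monocytes, plasmacytoid DC (PDC), CD4+ DC and CD4-CD8- DC, contribute to the estimate of the spread, and the spleen CD4+ DC (CD11c+, CD4+, without CD3, CD8 and B220) and CD4-CD8- DC (CD11c+, without CD3, CD4 and CD8) serve as a second comparison. Between CD8+ DC and CDP the organ, the sort and the position on the slide, which for CD8+ DC and for CDP was the same in both replicates, cannot be told apart from the population. The other spleen DC share the organ but not the sort or the position.

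CD8+ DC are the spleen DC best known for taking up dead cells and presenting their antigens to CD8+ T cells, and the CDP is the marrow progenitor from which conventional and plasmacytoid DC arise. A miRNA is a short RNA that guides the Argonaute protein to messenger RNAs, mainly through bases 2 to 8 of its sequence, the seed, and lowers their stability and translation. Many miRNAs are cut from a shared transcript as a cluster, and miRNAs with the same seed form a family with overlapping targets. In blood cells, miR-142 and miR-223 mark haematopoietic and myeloid identity, the miR-17 clusters accompany proliferation, and miR-146a and miR-155 are induced on activation through NF-κB.

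The mature sequences of the miRNAs on which the comparison turns are shown first, because several differ from a close relative by very few bases while their measured differences were far apart. Capitals mark the seed, bases 2 to 8 counted from the 5′ end. Sequences and positions are those of RefSeq on GRCm38.p6, which held 149 of the 175 miRNAs tested. The first set holds those of the 15 largest rises that had a RefSeq entry, with the relative of miR-146a that shares its seed.
miR-146a: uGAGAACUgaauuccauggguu
miR-146b: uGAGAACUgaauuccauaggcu
miR-22: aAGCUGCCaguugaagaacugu
miR-451: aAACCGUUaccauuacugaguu
miR-342-3p: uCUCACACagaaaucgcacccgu
miR-34a: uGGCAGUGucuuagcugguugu
miR-138: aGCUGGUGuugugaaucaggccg
miR-155: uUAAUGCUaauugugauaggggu
miR-1224: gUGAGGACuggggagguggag
miR-142-5p: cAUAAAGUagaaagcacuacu
miR-29a: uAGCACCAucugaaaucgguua
miR-29b: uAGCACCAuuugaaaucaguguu
miR-29c: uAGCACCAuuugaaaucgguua
The second set holds the families that were lower in CD8+ DC and the progenitor miRNAs that were not detected there.
miR-181a: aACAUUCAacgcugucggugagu
miR-181b: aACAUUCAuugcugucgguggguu
miR-181c: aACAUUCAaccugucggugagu
miR-181d: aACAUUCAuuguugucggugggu
miR-27a: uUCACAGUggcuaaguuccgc
miR-27b: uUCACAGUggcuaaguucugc
miR-17: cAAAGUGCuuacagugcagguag
miR-20a: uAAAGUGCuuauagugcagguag
miR-18a: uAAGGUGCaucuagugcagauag
miR-126-3p: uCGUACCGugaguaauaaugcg
miR-130a: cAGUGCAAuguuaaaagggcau
miR-196b: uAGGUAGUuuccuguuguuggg

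Levels are log2 array signals after division by a reference level of the array, the 75th percentile over those 88 miRNAs that every array detected, so 0 is that reference. Signals of different miRNAs come from different probes and are not set against each other. Replicate 1 of every population lay on one array design and replicate 2 on another, and differences were taken within a replicate number. Of the 604 mouse miRNAs on both designs, 150 and 174 were detected on the CD8+ DC arrays and 128 and 138 on the CDP arrays, 0 spots were saturated, and 20.2 and 25.4% of spots against 17.0 and 20.4% were well above background. Values below a floor of -5.30 on design 1 and -5.78 on design 2 were raised to it, and such values have no order and no spread of their own. Across the 175 miRNAs tested, the median absolute difference between replicates was 0.28 in CD8+ DC and 0.40 in CDP on the log2 scale. The arrays carry no messenger RNA, so the sorts could not be checked against surface marker genes. Of 22 miRNAs typical of muscle, stroma, epithelium, liver and neurons, 21 were detected on 0 CD8+ DC arrays and 22 on 0 CDP arrays. No endothelial miRNA was among them, so endothelial RNA was not checked. Both arms of miR-142, which is specific to blood cells, were detected on all 4 arrays. In sorted bulk samples, fewer cells with a miRNA and less of it per cell cannot be told apart.

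Many measurable miRNAs differed between the populations, in both directions. Of the 175 tested, 121 (69.1%) passed an adjusted p of 0.05 in limma with Benjamini-Hochberg adjustment, 85 higher (48.6%) and 36 lower (20.6%) in CD8+ DC. How many were called, and how many of them rose, depends on the scaling and the background correction. There were 77 calls when arrays were scaled over all shared miRNAs, 80 after quantile normalization and 42 with normexp background correction. The 42 were 30 higher and 12 lower, all of them among the 121 in the same direction. The median difference over all 175 was 0.47 with the scaling used here, -0.14 with the scaling over all (19 higher, 58 lower) and 0.00 after quantile normalization (36 higher, 44 lower). All 36 lower calls and 19 of the 85 higher calls held their direction and their call under both of these scalings. Both scalings lowered the differences, by a median of 1.21 and 0.64 over the 88 miRNAs detected on all arrays. A lower call could therefore hardly be lost, and that all 36 held is no check on them. The 19 were miR-146a, miR-22, miR-451, miR-342-3p, miR-150, miR-34a, miR-151-5p, miR-138, miR-714, miR-155, miR-29c, miR-1224, miR-29a, miR-142-5p, miR-29b, miR-365, miR-370, miR-101a and miR-125a-3p, and they include the 15 largest rises. Of the 19, miR-365 and miR-125a-3p passed the detection filter only through CD8+ DC, so their calls are no independent support. Left out 1 at a time, the 4 arrays each left 93 to 104 calls, and 58 of the higher and 29 of the lower calls passed without any one of them.

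**Figure D1:**
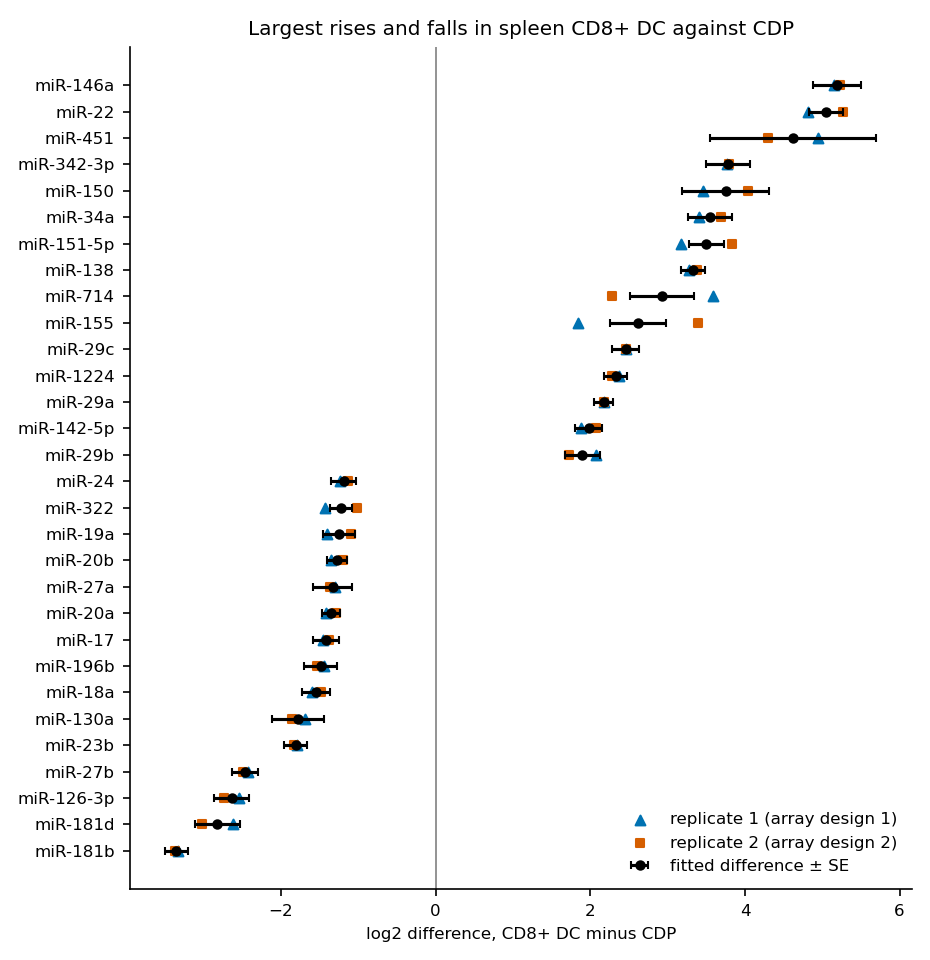
Log2 differences of CD8+ DC minus CDP for the 15 largest rises and 15 largest falls, within replicate 1 (triangles), within replicate 2 (squares) and as fitted with the SE (black, n = 2 per population). Rises run from 1.90 for miR-29b to 5.19 for miR-146a and falls from -1.19 for miR-24 to -3.35 for miR-181b, and both replicates lie on the same side of 0 for each; where a population had no detected array, the floor limits the size shown.

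The largest rise was that of miR-146a, a brake on Toll-like receptor signalling that targets Traf6 and Irak1. Its log2 signal was 0.32 and 0.38 in CD8+ DC replicates 1 and 2 and -4.83 and -4.86 in CDP. The groups were far apart and the replicates of each nearly coincided. The difference was 5.19 ± 0.31 (SE, n = 2 per population), 36.5-fold, with an adjusted p of 2.77e-06 in limma. miR-146b, which differs from miR-146a at 2 of 22 positions outside the seed and is encoded on another chromosome (chr19:46342790-46342811, plus strand, against chr11:43374435-43374456, minus strand), was at -4.10 and -4.23 against -5.30 and -5.32. Its difference of 1.14 ± 0.17 was called (limma, adjusted p = 0.00030) but not with arrays scaled over all miRNAs (0.05) or after quantile normalization (0.48). The other measured members of the activation list also rose. miR-155, needed for DC to activate T cells, was at -2.16 and -0.86 in CD8+ DC and -4.00 and -4.25 in CDP. All CD8+ DC values were above those of CDP, but the CD8+ DC replicates lay further apart than for most miRNAs, and the difference was 2.62 ± 0.36 (limma, adjusted p = 0.00025). miR-212 differed by 1.35 ± 0.31 (limma, adjusted p = 0.0042), a call lost with both other scalings. With normexp background correction the calls of miR-146b, miR-155 (adjusted p 0.052) and miR-212 were lost. In all, 4 of the 4 tested activation-linked miRNAs were higher, against 48.6% of all 175 (median difference 1.98, against 0.47 over all), 2 of which kept the call under both other scalings, and miR-132, miR-9, miR-147 and miR-511 did not pass the detection filter.

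Of 7 tested haematopoietic and myeloid miRNAs, 6 were higher and 1, miR-24, was lower (median 1.63), against 48.6% higher and 20.6% lower of all 175. miR-22, which targets Tet2 and is studied in blood stem cells and leukaemia, was at -0.48 and -0.38 in CD8+ DC and at -5.30 and -5.65 in CDP, where 1 of 2 arrays detected it. The groups did not approach each other, and the difference of 5.05 ± 0.22 (limma, adjusted p = 4.7e-07) is limited in size by the floor. miR-142-3p was at 2.39 and 1.20 against 0.90 and 0.01, and miR-142-5p, the other arm of the same hairpin on chromosome 11, was at -0.77 and -1.54 against -2.66 and -3.61. Values of both arms were lower on design 2 than on design 1 in both populations, and the differences within a design were alike, at 1.34 ± 0.19 for the 3′ arm and 1.98 ± 0.17 for the 5′ arm (limma, adjusted p = 0.00026 and 2.09e-05). With arrays scaled over all miRNAs the call of the 3′ arm was lost (0.13), that of the 5′ arm was not (0.77). miR-21, an abundant miRNA that targets Pdcd4, was at 2.27 and 2.03 against 0.52 and 0.51, a difference of 1.63 ± 0.38 (limma, adjusted p = 0.0050) that was not called under either other scaling. miR-26a, which targets Ezh2, differed by 1.64 ± 0.16 (limma, adjusted p = 2.95e-05) and by 0.43 without a call when scaled over all miRNAs. miR-223, the most myeloid of these miRNAs, was at 3.34 and 3.23 against 2.64 and 2.78. It was higher by 0.58 ± 0.20 (limma, adjusted p = 0.027), at -0.63 when scaled over all miRNAs and at 0.00 after quantile normalization, and the call was lost without CD8+ DC replicate 1 (adjusted p 0.099), CD8+ DC replicate 2 (0.094) and CDP replicate 1 (0.17).

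miRNAs known mainly from lymphocytes were among the largest rises. miR-342-3p, encoded in an intron of Evl, was at 1.53 and 1.73 in CD8+ DC and at -2.24 and -2.07 in CDP. The populations were separated by far more than the distance between replicates. The difference was 3.78 ± 0.29, 13.8-fold (limma, adjusted p = 8.24e-06). miR-150, a regulator of Myb in B and T cells, was at -1.44 and -0.83 against -4.90 and -4.87, a difference of 3.75 ± 0.56 (limma, adjusted p = 0.00036). miR-151-5p was at -2.12 and -1.96 and not well above background on either CDP array, so that it was at least 8.86-fold higher (limma, adjusted p = 3.75e-06, and 0.063 with no floor). miR-28 and miR-342-5p, also not well above background in CDP, were at least 1.29-fold and 1.49-fold higher, and both calls were lost without CDP replicate 2 (limma, adjusted p 0.058 and 0.052) and under both other scalings. miR-181a, known from T cells, went the other way, and the list counted 5 higher and 1 lower of 6 tested (median 2.21), against 48.6% and 20.6% of all 175. CD8+ DC were sorted without CD3 and B220. The signals of the B and T lymphocyte markers miR-150, miR-181a, miR-155 and miR-342-3p were summed before log2 was taken. The sum was at 1.90 and 2.22 in CD8+ DC, mostly from miR-342-3p, against -0.35 and -0.46 in CDP. The part of lymphocyte RNA in these rises was not tested. The erythroid miR-451 was high and uneven, at 0.31 and -0.96 in CD8+ DC against -4.63 and -5.26 in CDP (4.62 ± 1.08, limma, adjusted p = 0.0050). miR-486 was at least 1.25-fold higher (limma, adjusted p = 0.0028), a call lost under both other scalings (0.18 and 0.20) and with normexp correction (0.76). It passed the detection filter only through CD8+ DC, so its p-value is no independent support. miR-144 was detected on 0 arrays of either population. Summed before log2, the 3 erythroid miRNAs were at 0.38 and -0.82 in CD8+ DC, mostly from miR-451, against -3.45 and -4.00 in CDP.

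**Figure D2:**
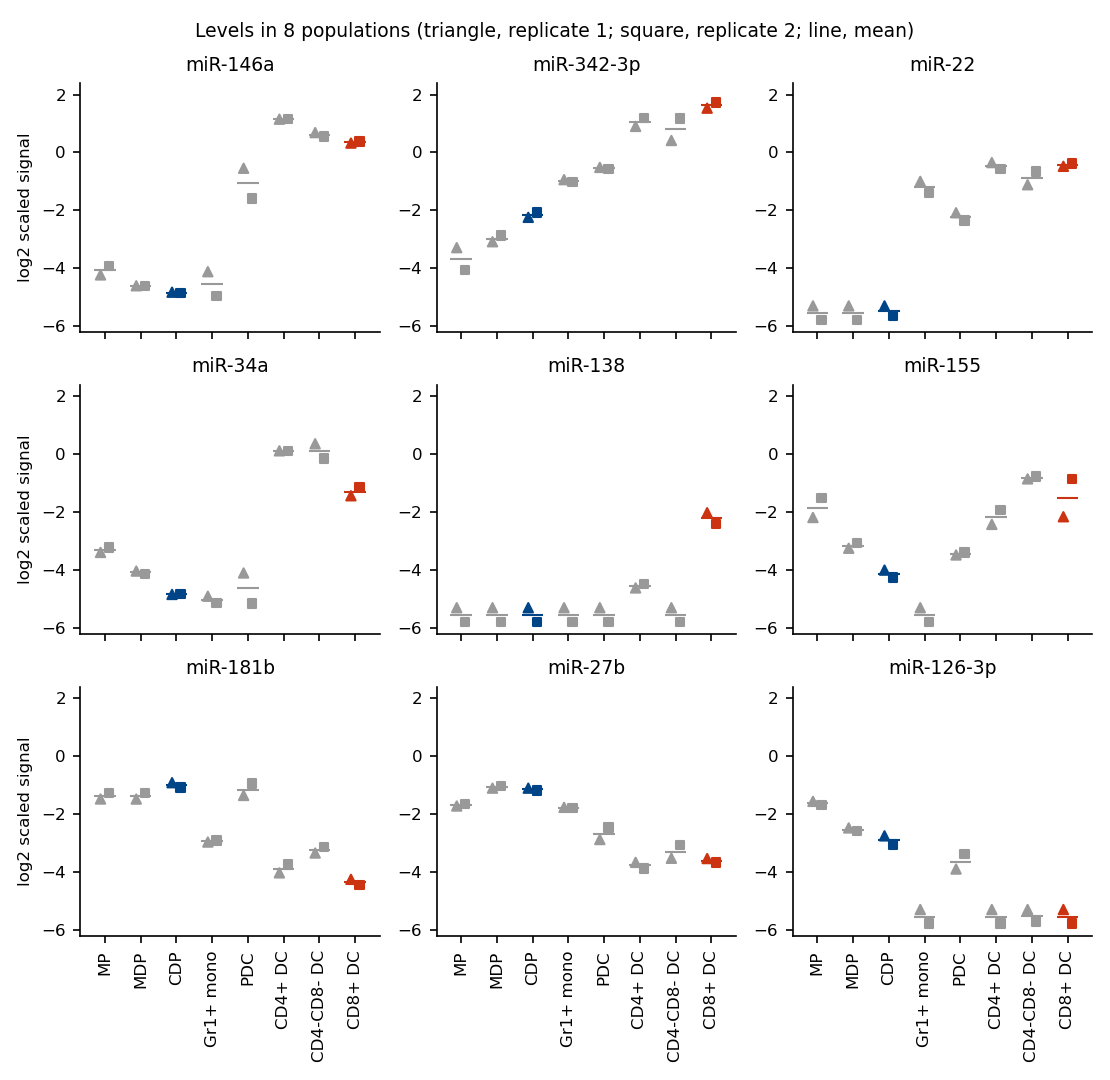
Log2 scaled signal of 9 miRNAs in all 8 populations, with triangles for replicate 1, squares for replicate 2 and lines for the mean, CD8+ DC in red and CDP in blue. In the plot miR-138 reaches -2.21 in CD8+ DC and at most -4.55 elsewhere, miR-181b is lowest in CD8+ DC at -4.35, and miR-126-3p lies at the floor in CD8+ DC; points at about -5.30 (replicate 1) and -5.78 (replicate 2) are floor values.

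Levels in the other populations place these rises. The mean log2 signal of miR-146a was 1.15 in CD4+ DC, 0.62 in CD4-CD8- DC, 0.35 in CD8+ DC and -1.07 in PDC, and between -4.84 and -4.07 in the 3 progenitor populations and the Gr1+ monocytes. miR-22 was at -0.43 in CD8+ DC, -0.46 in CD4+ DC, -0.89 in CD4-CD8- DC, -1.19 in Gr1+ monocytes and -2.21 in PDC, and near the floor in all 3 progenitors. miR-342-3p was highest in CD8+ DC (1.63 ± 0.14, SD, n = 2), followed by CD4+ DC (1.05) and CD4-CD8- DC (0.80), and its mean was ordered MP (-3.67), MDP (-2.97) and CDP (-2.16) among progenitors. miR-155 had its highest mean in CD4-CD8- DC (-0.81), and in CD8+ DC (-1.51) and MP (-1.85) the replicates overlapped. miR-34a, which p53 induces, was at 0.11 in CD4+ DC and CD4-CD8- DC and -1.28 in CD8+ DC, and at -3.31 or below in the marrow populations.

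All 3 members of the miR-29 family were called higher, against 48.6% of all 175 miRNAs. The family targets Dnmt3a, collagens and Mcl1. miR-29a was at 1.79 and 1.61 in CD8+ DC and -0.38 and -0.56 in CDP, and the difference of 2.17 ± 0.12 had an adjusted p of 2.47e-06 (limma). miR-29c, which differs from it at 1 of 22 positions, was at -2.07 and -2.35 against -4.53 and -4.81, a difference of 2.46 ± 0.18 (limma, adjusted p = 6.55e-06). miR-29b was at 0.35 and -0.94 against -1.73 and -2.66, a difference of 1.90 ± 0.23 (limma, adjusted p = 0.00011). In each case both CD8+ DC arrays were above both CDP arrays. The family is encoded as 2 pairs, miR-29b and miR-29c on chromosome 1 (chr1:195037091-195037621) and miR-29a and miR-29b on chromosome 6 (chr6:31062673-31063047), so that the miR-29b signal can come from both. The family median was 2.17, and 0.96 and 1.57 under the other scalings, which kept all 3 calls.

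**Figure D3:**
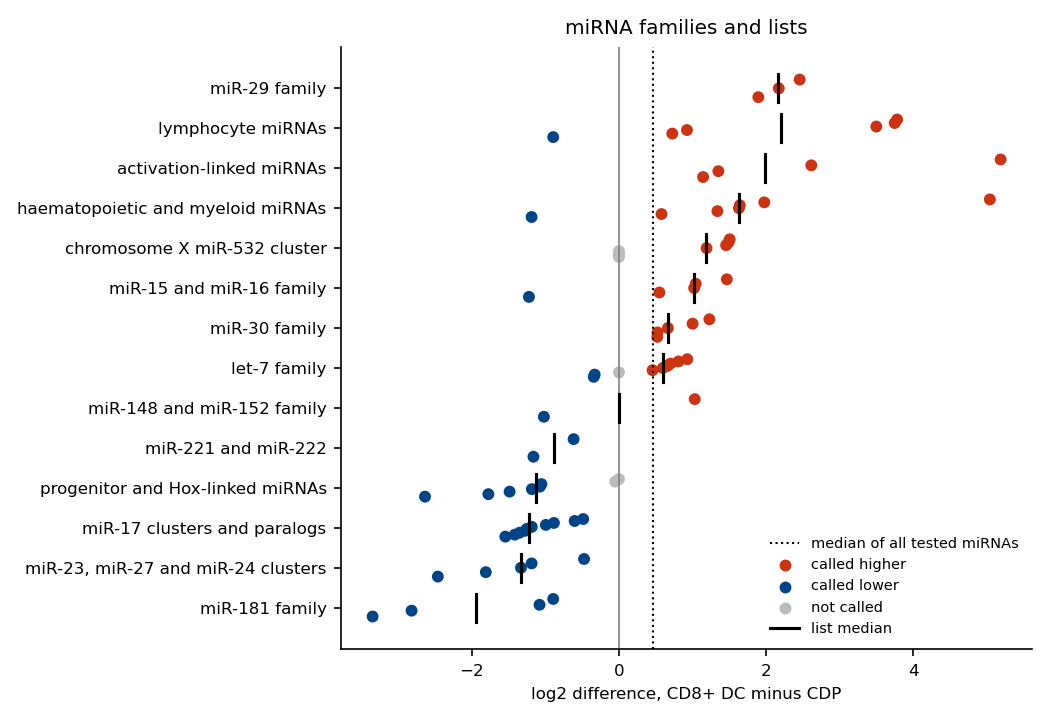
Log2 differences of CD8+ DC minus CDP for the tested members of 14 families and lists, red where called higher, blue where called lower and grey where not called, with a bar at each list's median and a dotted line at the median of all 175 miRNAs (0.47). The miR-181, miR-23/27/24 and miR-17 lists lie left of 0 in full; the let-7 and miR-30 lists lie near the dotted line, and their medians move to -0.55 each with arrays scaled over all miRNAs.

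The falls were led by the miR-181 family, which is known for setting T cell receptor sensitivity and is high in early progenitors. All 4 members were called lower (median -1.95), against 20.6% of all 175 miRNAs. miR-181b was at -4.26 and -4.45 in CD8+ DC and at -0.92 and -1.08 in CDP. The replicates of each population were close, the groups far apart, and the difference was -3.35 ± 0.15 (limma, adjusted p = 4.7e-07). miR-181d, which differs from miR-181b at 1 of 23 positions compared, was at -5.14 and -5.70, detected on 1 of 2 arrays, against -2.52 and -2.68, a difference of -2.82 ± 0.29 (limma, adjusted p = 4.09e-05). miR-181a, which differs from miR-181b at 3 of 23 positions and is encoded beside it at both its loci (chr1:137966468-137966490 and chr2:38852741-38852763, plus strand), was at -2.07 and -2.10 against -1.07 and -1.31. Its fall of -0.89 ± 0.13 (limma, adjusted p = 0.00028) was smaller in value than that of its cluster partner, a contrast between probes that was not tested. miR-181c, the partner of miR-181d on chromosome 8, differed by -1.08 ± 0.19 (limma, adjusted p = 0.00086). In the mature PDC, group means of miR-181b, miR-181d and miR-181a differed from CDP by -0.15, -0.09 and 1.91. With normexp background correction, which adds an offset of 50 to each signal, the calls of miR-181a, miR-181c and miR-181d were lost.

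All 5 members of the miR-23, miR-27 and miR-24 clusters were called lower (median -1.33), against 20.6% of all 175 miRNAs. The differences of near-identical members were not alike. miR-27b (chr13:63300760-63300780, plus strand) was at -3.54 and -3.68 in CD8+ DC against -1.11 and -1.18 in CDP, a difference of -2.46 ± 0.17 (limma, adjusted p = 4.79e-06). miR-27a (chr8:84208727-84208747, plus strand), which differs from it at 1 of 21 positions, was at -1.90 and -2.53 against -0.60 and -1.16, a difference of -1.33 ± 0.26 (limma, adjusted p = 0.0017). miR-23b was at -1.88 and -1.82 against -0.09 and 0.01, a difference of -1.81 ± 0.15 (limma, adjusted p = 1.36e-05). miR-23a differed by -0.47 ± 0.17 (limma, adjusted p = 0.032), a call that was lost without CD8+ DC replicate 1 (adjusted p 0.12), CD8+ DC replicate 2 (0.088) and CDP replicate 1 (0.19). miR-24, made from both clusters, was at -1.17 and -1.02 against 0.06 and 0.12, a difference of -1.19 ± 0.16 (limma, adjusted p = 0.00023).

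All 10 tested members of the miR-17 clusters, whose known targets include Bim and E2f1, were called lower (median -1.22), against 20.6% of all 175. The 6 encoded together on chromosome 14 (chr14:115043684-115044496, plus strand) differed by -0.99 for miR-19b, -1.19 for miR-92a, -1.25 for miR-19a, -1.35 for miR-20a, -1.42 for miR-17 and -1.55 for miR-18a on the log2 scale. miR-20a was at -0.09 and -0.01 in CD8+ DC against 1.33 and 1.29 in CDP, and miR-18a at -3.12 and -2.995 against -1.52 and -1.51. For both, the distance between populations was far larger than that between replicates, and the SEs were 0.12 and 0.19 (limma, adjusted p = 2.15e-05 and 0.00011). miR-20b on chromosome X differed by -1.27 ± 0.13 (limma, adjusted p = 4.83e-05). The chromosome 5 cluster had differences of -0.49 ± 0.13 for miR-106b, -0.88 ± 0.16 for miR-93 and -0.60 ± 0.13 for miR-25 (limma, adjusted p = 0.011, 0.0013 and 0.0028), and the call of miR-106b was lost without CD8+ DC replicate 2 (adjusted p 0.066) and without CDP replicate 1 (0.089). The mean of miR-20a was 1.31 to 1.65 in the 3 progenitors and 0.38 or below in the other 5 populations. With normexp correction the calls of miR-17, miR-19a, miR-106b and miR-25 were lost. Against the mean of the other spleen DC, miR-18a, miR-17 and miR-20a were higher in CD8+ DC (0.65, 0.58 and 0.35, limma, adjusted p = 0.014, 0.014 and 0.029). None of these calls held with arrays scaled over all miRNAs or with normexp correction.

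Of 8 tested progenitor and Hox-linked miRNAs, 6 fell, against 20.6% of all 175, and 2, miR-130b and let-7e, were not called (median -1.13). miR-126-3p, encoded in Egfl7 and active in haematopoietic stem cells, was at -2.75 and -3.05 in CDP and not well above background on either CD8+ DC array, at least 4.44-fold lower (limma, adjusted p = 1.78e-05). miR-130a was at -3.61 and -3.92 in CDP and at least 2.44-fold lower (limma, adjusted p = 0.0016), and miR-196b, which lies in the Hoxa cluster, was at -3.86 and -4.25 and at least 2.00-fold lower (limma, adjusted p = 0.00033). These 3 were dimmest in CDP among the progenitors, with means of -1.62, -1.04 and -1.42 in MP and -2.54, -2.78 and -3.02 in MDP. In the mature PDC their means differed from CDP by -0.74, -0.37 and 0.03. miR-125b-5p was at -4.87 and -3.67 against -3.18 and -2.99, a difference of -1.18 ± 0.28 (limma, adjusted p = 0.0051), and its CD8+ DC replicates, though both below CDP, lay further apart than those of CDP. miR-99a, encoded in a cluster with a copy of miR-125b, differed by -1.05 ± 0.21 (limma, adjusted p = 0.0019) and was detected on 1 of 2 CD8+ DC arrays. miR-10a, another Hox cluster miRNA, was at -4.37 and -4.51 against -3.60 and -3.12, a difference of -1.08 ± 0.40 (limma, adjusted p = 0.039) whose call was lost without any one of the 4 arrays (adjusted p up to 0.23). With normexp correction the calls of miR-126-3p, miR-130a, miR-196b, miR-125b-5p, miR-99a and miR-10a were all lost. miR-221 and miR-222, which target Kit, the stem cell factor receptor CD117, differed by -1.16 ± 0.16 and -0.62 ± 0.14 (limma, adjusted p = 0.00022 and 0.0041). The call of miR-222 was lost with normexp correction (limma, adjusted p 0.76). Against the mean of the other spleen DC, miR-221 and miR-222 were higher in CD8+ DC (1.23 and 0.94, limma, adjusted p = 0.00040 and 0.000875). Neither of these calls held with arrays scaled over all miRNAs or with normexp correction.

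The let-7 and miR-30 families had medians of 0.60 and 0.67, close to the 0.47 of all 175 miRNAs. That of the miR-15 and miR-16 family was 1.02. In the let-7 family, which restrains Lin28, Ras and Hmga2, 6 of 9 were called higher (0.46 to 0.93), let-7b and let-7c were called lower (-0.34 and -0.33) and let-7e was at the floor, a share of higher calls to be read against the 48.6% of all 175. All 6 higher members had negative differences with arrays scaled over all miRNAs (-0.75 to -0.28), and let-7a, let-7d, let-7i and miR-98 also after quantile normalization. let-7a was at 2.44 and 2.53 against 1.79 and 1.78, and let-7c, 1 base different in 22, at -0.05 and 0.19 against 0.29 and 0.51. The calls of let-7b and let-7c were lost without CD8+ DC replicate 2 (adjusted p 0.066 and 0.071) and CDP replicate 1 (0.11 and 0.10), and those of let-7c and let-7i without CDP replicate 2 (0.057 and 0.050). All 5 miR-30 miRNAs were called higher (0.52 to 1.23), yet miR-30a, miR-30c, miR-30d and miR-30e were below 0 with arrays scaled over all miRNAs, and the last 3 also after quantile normalization. The call of miR-30d was lost without CD8+ DC replicate 1 or CDP replicate 2 (adjusted p 0.074 and 0.073) and that of miR-30e without CDP replicate 2 (0.054). Of the miR-15 and miR-16 family, which targets Bcl2 and cyclins, miR-15a (1.47 ± 0.11), miR-16 (1.04 ± 0.11) and miR-15b (0.55 ± 0.11) were higher (limma, adjusted p = 7.35e-06, 3.87e-05 and 0.0024). Scaled over all miRNAs, however, miR-16 and miR-15b were at -0.17 and -0.66, and miR-15a was at 0.26 without a call. miR-195 was at least 1.59-fold higher (limma, adjusted p = 0.00057). Its call was lost under both other scalings (limma, adjusted p 0.30 and 0.11) and with normexp correction (0.66). miR-322, which has the same seed and lies on chromosome X, went the other way, at -4.44 and -4.32 against -3.01 and -3.31, a difference of -1.22 ± 0.14 (limma, adjusted p = 8.42e-05). The call of miR-322 was lost with normexp correction (limma, adjusted p 0.6).

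**Figure D4:**
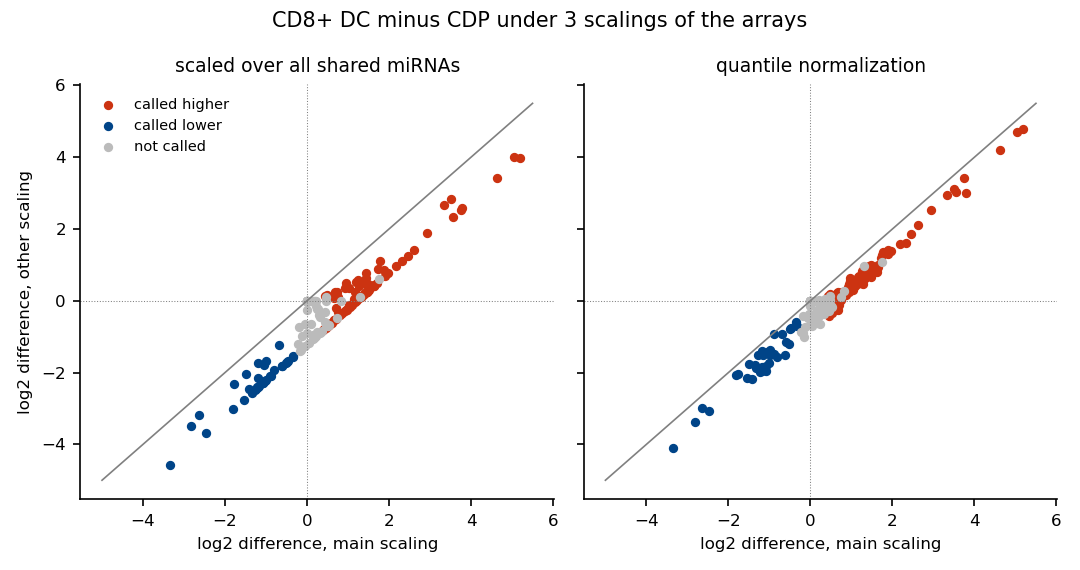
Log2 differences of CD8+ DC minus CDP for 175 miRNAs with the main scaling (horizontal axis) against arrays scaled over all shared miRNAs (left) and quantile normalization (right), coloured by the call with the main scaling. Points lie below the diagonal, by a median of 1.21 on the left and 0.64 on the right over the 88 miRNAs detected on all arrays, so that 25 and 11 calls change sign, all of them red.

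Within families, differences were uneven, and with the main scaling some had opposite calls. Of 113 distinct seeds among the matched miRNAs, 17 were shared by more than 1, of which 4 had calls in both directions, 6 higher only, 6 lower only and 1 none. Scaled over all miRNAs, 0 of the 17 had calls in both directions, and after quantile normalization 1 did. One such pair was miR-148a and miR-148b, which share the seed CAGUGCA and differ at 2 of 22 positions. miR-148a was at -3.53 and -4.04 in CD8+ DC against -2.62 and -2.91 in CDP, a difference of -1.02 ± 0.14 (limma, adjusted p = 0.00023). miR-148b was at -4.38 and -4.28 against -5.30 and -5.43, a difference of 1.03 ± 0.14 (limma, adjusted p = 0.00020) that came to -0.12 with arrays scaled over all miRNAs. The calls of miR-148a and miR-148b were both lost with normexp correction (limma, adjusted p 0.49 and 0.60). For the seed AGUGCAA, miR-130a was lower and miR-721 was higher, at -2.71 and -3.43 against -3.83 and -5.78, detected on 1 of 2 CDP arrays (limma, adjusted p = 0.017). The call of miR-721 was lost with arrays scaled over all miRNAs (adjusted p 0.26), after quantile normalization (0.076), with normexp correction (0.26) and with 1 array left out (up to 0.13). On chromosome X, miR-532-5p (1.49), miR-500 (1.51) and miR-188-5p (1.46) of the miR-532 cluster were higher, miR-362-3p, detected on 0 CDP arrays, was at least 1.79-fold higher (limma, adjusted p = 0.0051), and 3 of 7 tested members were at the floor in both populations. None of the 4 calls held with arrays scaled over all miRNAs (0.25 to 0.52), and those of miR-500 and miR-188-5p were lost without CD8+ DC replicate 1 (adjusted p 0.064 and 0.056) and without CDP replicate 2 (0.087 and 0.064).

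Which of these differences CD8+ DC did not share with the other spleen DC was asked with the difference between CD8+ DC and the mean of CD4+ and CD4-CD8- DC, from which CDP drops out. Here 58 of 175 (33.1%) passed an adjusted p of 0.05 (limma), 45 higher (25.7%) and 13 lower (7.43%) in CD8+ DC. Scaled over all miRNAs the split was 9 higher and 55 lower, and after quantile normalization 22 and 27. All 13 lower calls held under both, and 9 higher ones did, those of miR-138, miR-714, miR-139-3p, miR-697, miR-365, miR-188-5p, miR-1224, miR-370 and miR-125a-3p. Both scalings lowered these differences too, by a median of 0.745 and 0.25 over the 88 miRNAs detected on all arrays. That all 13 lower calls held is therefore no check on them. Of the 9 higher ones, miR-365 and miR-125a-3p passed the detection filter only through CD8+ DC, so their calls are no independent support. With CD8+ DC replicate 1 left out 37 were called, 34 of them among the 58, and with replicate 2 left out 37, 35 of them among the 58. With normexp correction 1 was called, miR-1224.

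miR-138 showed the largest such difference. Encoded on chromosomes 8 and 9 (chr8:94324312-94324334 and chr9:122682898-122682920, plus strand), it was at -2.02 and -2.41 in CD8+ DC, at -4.61 and -4.48 in CD4+ DC, and not well above background on any array of the other 6 populations. Both CD8+ DC arrays lay above every other array. It was at least 7.86-fold higher than in CDP (limma, adjusted p = 4.7e-07), and the difference from the other spleen DC was 2.83 ± 0.13 (limma, adjusted p = 1.63e-06), a value that rests on the floor on the CD4-CD8- side. miR-365 was at -3.59 and -3.35 in CD8+ DC, and was detected on 0 arrays of CDP and CD4+ DC and on 1 of 2 of CD4-CD8- DC. It passed the detection filter only through CD8+ DC, where it is high, so its p-values are no independent support. It was at least 3.29-fold higher than in CDP (limma, adjusted p = 3.52e-05) and its fitted difference from the other spleen DC was 1.82 ± 0.16 (limma, adjusted p = 9.57e-05), a value whose size is set by signals not well above background on 3 of the 4 arrays of those DC. With normexp correction both differences from the other spleen DC kept their sign without a call (1.24 and 0.61), and the call of miR-365 against CDP was also lost (adjusted p 0.40).

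miR-1224 was bright in every population and highest in CD8+ DC, at 1.23 and 1.64 against -1.14 and -0.64 in CDP, 0.15 and 0.16 in CD4+ DC and -0.62 and -0.26 in CD4-CD8- DC. It differed from CDP by 2.33 ± 0.14 (limma, adjusted p = 2.97e-06) and from the other spleen DC by 1.58 ± 0.12 (limma, adjusted p = 4.41e-05). miR-714 was at -1.71 and -2.68 in CD8+ DC against -5.30 and -4.96 in CDP (2.93 ± 0.42, limma, adjusted p = 0.00028) and differed from the other spleen DC by 2.47 ± 0.36 (limma, adjusted p = 0.0013). The rises against the other spleen DC included many probes rich in G and C. At least 60% of the probe bases were G or C for 19 of the 45 higher calls (42.2%), 3 of the 13 lower calls and 44 of all 175 miRNAs (25.1%), a threshold chosen after the values were seen, and the probe GC was 83.9% for miR-714 and 71.4% for miR-1224. With a GC trend removed from each array 67 were called against the other spleen DC, 49 of them among the 58, and 1 of the 58 changed sign.

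**Figure D5:**
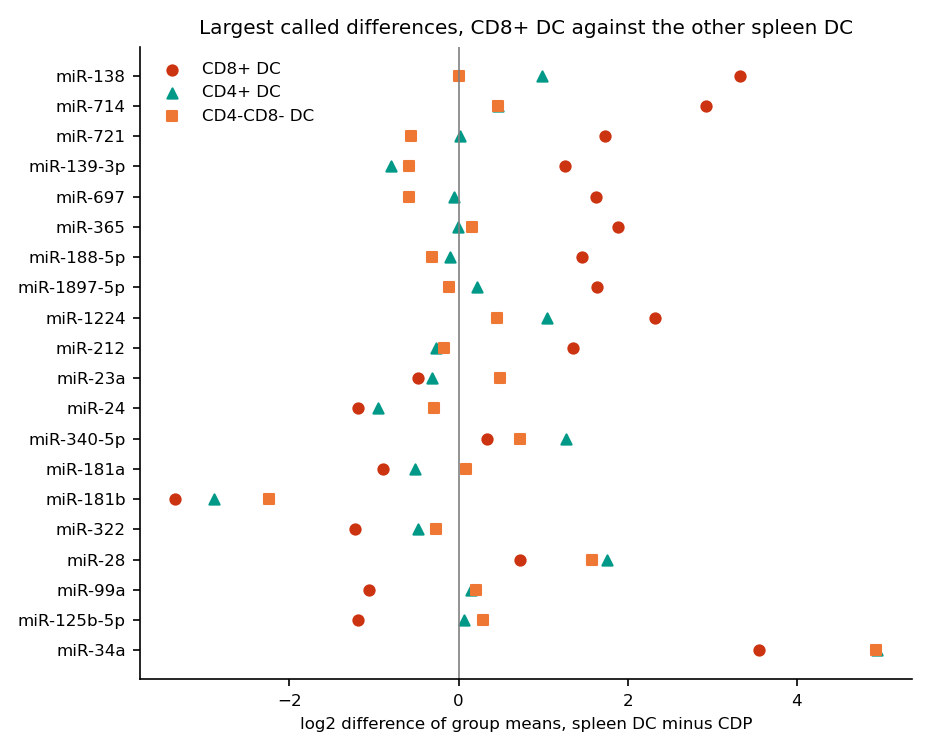
Log2 differences of group means from CDP for CD8+ DC (circles), CD4+ DC (triangles) and CD4-CD8- DC (squares), for the 10 largest rises and 10 largest falls among the calls of CD8+ DC against the mean of the other spleen DC; n = 2 per population, and for miRNAs not detected in CDP the floor limits the size shown. For miR-138, miR-365 and miR-1224 the CD8+ DC circle lies to the right of both other symbols, and for miR-34a it lies to the left, at 3.55 against 4.95 and 4.94.

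Other miRNAs had risen less or fallen further in CD8+ DC than in the mean of the other spleen DC. miR-34a was at -1.43 and -1.14 in CD8+ DC, 0.12 and 0.10 in CD4+ DC, 0.36 and -0.15 in CD4-CD8- DC and -4.84 and -4.83 in CDP. All spleen DC arrays were above CDP and the CD8+ DC arrays were the lowest of them. The rise over CDP was 3.55 ± 0.28, 11.7-fold (limma, adjusted p = 1.14e-05), and the difference from the other spleen DC -1.39 ± 0.24 (limma, adjusted p = 0.0027). miR-125b-5p and miR-99a differed from the other spleen DC by -1.36 ± 0.24 and -1.23 ± 0.18 (limma, adjusted p = 0.0029 and 0.0013), whose means differed from CDP by 0.06 and 0.28 for miR-125b-5p and by 0.15 and 0.21 for miR-99a. miR-181b and miR-181a differed by -0.78 ± 0.13 and -0.68 ± 0.11 (limma, adjusted p = 0.0024 for each), and miR-322 by -0.85 ± 0.12 (limma, adjusted p = 0.0013). miR-23a and miR-24 differed by -0.56 ± 0.14 and -0.57 ± 0.14 (limma, adjusted p = 0.015 and 0.014), calls lost without either CD8+ DC array (adjusted p 0.078 to 0.11). Means in CD8+, CD4+ and CD4-CD8- DC were -0.24, -0.08 and 0.72 for miR-23a and -1.10, -0.86 and -0.20 for miR-24. They were -2.08, -1.71 and -1.105 for miR-181a and -4.35, -3.89 and -3.25 for miR-181b. For these, CD4+ DC lay closer to CD8+ DC than CD4-CD8- DC did. For miR-146a (-0.53 ± 0.27), miR-22 (0.24 ± 0.19), miR-29a (0.05 ± 0.11) and miR-29c (-0.29 ± 0.15) no difference from the other spleen DC was called (limma, adjusted p = 0.15, 0.35, 0.81 and 0.17), and each was above CDP in all 3 spleen DC. With arrays scaled over all miRNAs, miR-146a (-1.28), miR-29a (-0.70) and miR-29c (-1.03) were called lower than in the other spleen DC (limma, adjusted p = 0.013, 0.0096 and 0.0028), and miR-29c also after quantile normalization (-0.61, 0.042).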

How the data were processed

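RNA of the 4 samples had been labelled with Cy3 and hybridised to Agilent mouse miRNA arrays. Each spot had been read and its background removed by Feature Extraction, version 10.7.3.1 as the file headers give it (9.1 per the submitters' processing notes). The deposited intensity values, linear and not scaled between arrays, were used, and the series tables hold the same signals within 0.51%. Outlier spots were left out, spots and then probes of a miRNA were averaged, and a miRNA counted as detected where any of its probes had a share of 0.5 or more of its spots well above background. The 604 mouse miRNAs on both designs had identical probes. The reference level of an array was the 75th percentile over the 88 miRNAs that all 16 arrays detected. After division by it a floor (the median over a design's arrays of the 5th percentile of detected values) was set, and log2 taken. A fold against a population detected on 0 arrays is a lower bound, the mean of the brighter population over the lowest signal of a detected probe on each array of the dimmer one, or its own signal where higher.

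Tested were the 175 miRNAs that both arrays of any population detected. Some, among them miR-365, miR-125a-3p and miR-486, passed only through CD8+ DC, so their p-values are no independent support. The limma fit (version 3.58.1, R 4.3.3) had a term for every one of the 8 populations and the array design, which is the replicate number, as a block (8.52 residual degrees of freedom after moderation). Calls have a Benjamini-Hochberg adjusted p under 0.05. The numbers mark the array design and pair the samples by it. Arrays with the same number departed from their populations' means together in all 28 pairs of populations (r 0.30 to 0.92). The offset between designs and their unequal floors are part of each r, so these values cannot show a pairing beyond the design. SDs include the offset between designs. The number of arrays limits the precision, and tests on floor values can be too confident. The fit was also run on simulated arrays with independent noise and no floor, which cannot test the effect of floor values. Named are the 15 largest rises and 15 largest falls whose sign the replicates share, the list members, 13 miRNAs in every case, and the 10 largest rises and 10 largest falls among the calls against the other spleen DC. Members, lists and rules were chosen with earlier results of these data known. Alternatives were 3 other scalings or background corrections, the series tables, the brightest probe, 2 other filters, no floor, no block, the compared arrays only, a GC trend removed, each array left out and, chosen after seeing the files, Agilent's total signal per miRNA. Not tested were 39 viral probe sets and the mouse miRNAs that a single design carries, 7 on design 1 and 92 on design 2.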

Additional observations from a re-analysis of the deposited data

Results flagged for a closer look

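Between CD8+ DC and the mean of the other spleen DC, the differences from CDP were unequal by the test of the difference itself (limma, adjusted p under 0.05) for 58 miRNAs, of which the 10 largest rises and 10 largest falls follow. On the log2 scale the differences were 2.83 for miR-138, 2.47 for miR-714, 2.01 for miR-721, 1.96 for miR-139-3p, 1.95 for miR-697, 1.82 for miR-365, 1.66 for miR-188-5p, 1.59 for miR-1897-5p, 1.58 for miR-1224 and 1.57 for miR-212. They were -1.39 for miR-34a, -1.36 for miR-125b-5p, -1.23 for miR-99a, -0.94 for miR-28, -0.85 for miR-322, -0.78 for miR-181b, -0.68 for miR-181a, -0.66 for miR-340-5p, -0.57 for miR-24 and -0.56 for miR-23a. miR-138 and miR-721 were detected on 0 arrays of CD4-CD8- DC and miR-365 on 0 of CD4+ DC, so the floor limits these sizes. Floor values also entered those of miR-139-3p (both CD4+ DC arrays, CD4-CD8- DC replicate 2), miR-212 (replicate 1 of both) and miR-99a (CD8+ DC replicate 1). miR-365 passed the detection filter only through CD8+ DC.

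Among the 92 mouse miRNAs that only the design of replicate 2 carries, 35 were detected in CD8+ DC and 28 in CDP, so 7 were detected in CD8+ DC and not in CDP and 0 the other way round. The 7 were miR-3472, miR-1306, miR-3474, miR-1940, miR-767, miR-1971 and miR-2182, with log2 signals of -3.81, -3.98, -4.36, -5.21, -5.21, -5.38 and, at the floor, -5.78. With 1 array a population there is no replicate of these values. Of 39 viral probe sets on the other design, 4 were detected in CD8+ DC and 3 in CDP, and 1 in CD8+ DC alone, at -4.46.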

How the results depend on the processing

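Against CDP, 121 calls became 77 with arrays scaled over all shared miRNAs, 80 after quantile normalization, 42 with normexp correction and 77 when only the 88 miRNAs detected on all arrays were tested. Without the replicate block 96 were called, and with single arrays left out 93 to 104. Of 80 named miRNAs, 40 kept direction and side of the threshold with normexp correction, 51 scaled over all miRNAs, 58 after quantile normalization, 66 with the compared arrays only, 73 without the block, and all 80 with the series tables, the GC trend removed and Agilent's total signal. Scaled over all miRNAs, let-7a came to -0.51, let-7d -0.55, let-7f -0.40, let-7g -0.28, let-7i -0.75, miR-98 -0.61, miR-148b -0.12, miR-15b -0.66, miR-16 -0.17, miR-223 -0.63, miR-30a -0.21, miR-30c -0.69, miR-30d -0.55 and miR-30e -0.69. After quantile normalization let-7a came to -0.056, let-7d -0.074, let-7i -0.41, miR-98 -0.19, miR-15b -0.088, miR-30c -0.13, miR-30d -0.26 and miR-30e -0.33. Over the 88 miRNAs detected on all arrays these settings lowered the differences by a median of 1.21 and 0.64. miR-130b, never called in the main setting, came to 0.003 with normexp correction and to 0.005 and 0.021 with 1 array left out.

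Against the other spleen DC, 58 calls became 1 with normexp correction (24 at an unadjusted p under 0.05), 32 on the 88 miRNAs, 35 with no filter, 24 with the compared arrays only and 39 without the replicate block, and 37 to 60 with single arrays left out. With normexp correction miR-28 came to 0.029, miR-181b to 0.002 and miR-340-5p to 0.004. The causes were not tested beyond the shift of the whole scale. Signal over background limits miRNAs near the floor, where 50 and 57 of the 175 lay in CDP and 21 and 27 in CD8+ DC.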
